A study of Homo sapiens with 10 samples.

Results

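A set of 8 genes of the short arm of human chromosome 1 that have been studied as candidate tumour suppressors in neuroblastoma were followed across all arrays of the series: TP73, CHD5, CAMTA1, ERRFI1, UBE4B, KIF1B, CASZ1 and ARID1A. They were chosen by symbol in the platform annotation, and each of the 8 had 1 probe set among 21448 gene probe sets. The study exposed human neuroblastoma cell lines to BG-P1600-TAT, a polymer conjugate that the series title describes as directed at the norepinephrine transporter and the integrin αvβ3. SK-N-AS cells, a gift of the Children's Oncology Group, received 30 µM of the conjugate for 48 h (3 arrays, numbered 28, 29 and 30) or PBS for the same time (3 arrays, 25, 26 and 27). SK-N-FI cells, from ATCC, received the same conjugate (2 arrays) or PBS (2 arrays). Both lines were grown in IMDM with serum, each is a single line, and no genetic change was introduced. The SK-N-AS titles write BG-P-TAT, taken here as the compound of the treatment protocol, and the design text names 3 biological replicates of SK-N-FI, of which 2 per condition were analysed here. The labels do not say that arrays of a group came from separate cultures, so p-values measure the spread between these arrays, which may be technical.

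Loss of distal 1p recurs in neuroblastoma, and the genes of the lost stretch have been examined for those whose reduced dose favours the tumour. They act in different processes. TP73 is a transcription factor of the p53 family, CHD5 a chromatin-remodelling helicase of neurons, CAMTA1 a calmodulin-binding transcription activator and CASZ1 a zinc-finger transcription factor. ARID1A is a DNA-binding subunit of the SWI/SNF chromatin remodelling complex, UBE4B a U-box ubiquitin ligase, KIF1B a kinesin that carries organelles along axons and promotes neuronal apoptosis, and ERRFI1 a feedback inhibitor of the ERBB receptors.

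The deposited values are log2 signals, and they did not lie on a common scale in the lines. The median over all gene probe sets was 5.75 to 5.81 in SK-N-AS arrays and 6.61 to 6.62 in SK-N-FI arrays, and the 75th percentile was 8.11 to 8.31 in SK-N-AS and 9.88 to 9.96 in SK-N-FI. Positive control probe sets had medians of 11.75 to 11.95 in SK-N-AS and 12.92 to 13.09 in SK-N-FI. After quantile normalization over the 10 arrays, which gives every array the same distribution, those medians were 12.25 to 12.43 in SK-N-AS and 12.21 to 12.30 in SK-N-FI. Levels between the lines are therefore given on this quantile scale, with deposited values beside them, and treatment effects within a line on the deposited scale. Quantile normalization also removes any difference shared by most genes. It does not remove an offset of a single probe set between the arrays of SK-N-AS and those of SK-N-FI. No array of a line had a median in the range of the other line. Whether the lines were run as separate sets of arrays was not established. Sets of that kind would coincide with line, and such offsets could not be told apart from it. The share of such offsets in the line differences below was therefore not tested. A probe set counted as above background where its signal passed the threshold of the array, set at the 95th percentile of the 612 negative controls. This held for 32.9% to 39.7% of gene probe sets in SK-N-AS arrays and for 38.3% to 44.3% in SK-N-FI arrays. On the deposited scale the threshold was 6.75 to 7.23 in SK-N-AS arrays and 7.44 to 8.26 in SK-N-FI arrays. On the quantile scale it was 7.23 to 7.96 in SK-N-AS and 6.73 to 7.38 in SK-N-FI. Background was thus lower in SK-N-AS on the deposited scale and mostly higher there on the quantile scale. Low signals and fold bounds between the lines depend on that choice.

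CAMTA1, ERRFI1, UBE4B and ARID1A were above background on all 10 arrays. KIF1B was above background on 0 of 6 SK-N-AS arrays and on 4 of 4 SK-N-FI arrays. CASZ1 was above background on 1 of 6 SK-N-AS arrays (treated array 29, where its deposited value and the threshold were both 7.01) and on 4 of 4 SK-N-FI arrays. CHD5 and TP73 were above background on none of the 10 arrays, so their values below are probe signals and no level can be read from them.

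**Figure D1:**
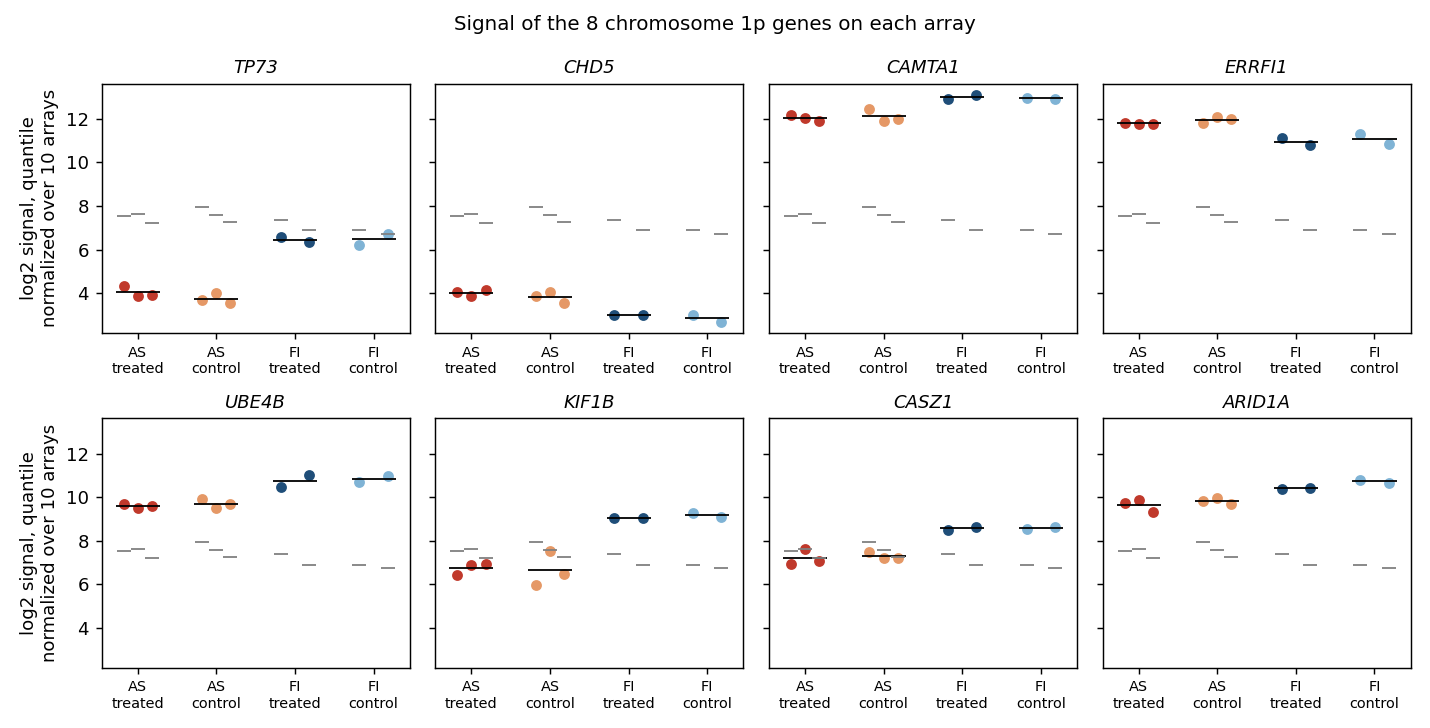
Log2 signal of each of the 8 genes after quantile normalization over 10 arrays (y axis), with 1 point per array in the 4 groups of line (AS, SK-N-AS; FI, SK-N-FI) and treatment (x axis). Black lines are group means and grey ticks the background threshold of each array; TP73 and CHD5 lie below the ticks on every array, and KIF1B lies above them in SK-N-FI arrays only.

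The first comparison asked how the genes differed between the untreated lines. In control arrays, the signals of 6 of the 8 genes were lower in SK-N-AS than in SK-N-FI and those of 2 higher on the quantile scale (limma, Benjamini-Hochberg adjusted p over 21448 probe sets under 0.05). The lower include TP73, and the higher are CHD5 and ERRFI1. TP73 and CHD5 were below background on every array, and ERRFI1 turned with the scale. The lines differed widely, however: 22.8% of all probe sets were called lower in SK-N-AS, 23.9% higher and 46.7% in either direction. Arrays of the lines did not overlap for any of the 8 genes, nor for 66.4% of all probe sets. Among the 9658 probe sets above background on every array of a control group, 32.9% were called lower and 28% higher, and 5 of the 6 such genes of the set were lower and 1 higher. KIF1B and CASZ1 passed that filter through SK-N-FI alone, so they had to be lower in SK-N-AS. The median difference was -1.01 over the 8 genes and 0.03 over all other symbols. On the deposited scale, which moved the median of all other symbols to -0.65, 6 of the 8 were called lower and 1 higher, against 47.8% and 11.5% of all probe sets (59.3% in either direction). After median centring, where that median was 0.20, again 6 were lower and 1 higher, against 27.8% and 34.9% (62.7% in either direction). On both of these scales the gene called higher was CHD5. In these bulk samples, fewer cells expressing a gene and less RNA per cell cannot be told apart.

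The transcription factors and chromatin regulators came first. CAMTA1 had quantile signals of 12.17, 12.05 and 11.92 in treated and 12.45, 11.90 and 12.00 in control SK-N-AS arrays, against 12.89 and 13.09 in treated and 12.97 and 12.91 in control SK-N-FI arrays. Every SK-N-AS array was lower than every SK-N-FI array. Among control arrays CAMTA1 averaged 12.12 ± 0.29 in SK-N-AS (SD, n = 3) and 12.94 ± 0.04 in SK-N-FI (SD, n = 2). The difference was -0.83 (95% interval -1.33 to -0.33, limma adjusted p = 0.0111), or 1.77-fold lower in SK-N-AS, and it was -1.96 on the deposited scale. The call was lost without SK-N-FI control array 1 (limma adjusted p = 0.0702) and without array 2 (0.0549).

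ARID1A had quantile signals of 9.73, 9.86 and 9.33 in treated and 9.84, 9.97 and 9.70 in control SK-N-AS arrays, against 10.39 and 10.41 in treated and 10.79 and 10.65 in control SK-N-FI arrays. The lines were again fully apart. The control difference was -0.88 (95% interval -1.37 to -0.39, limma adjusted p = 0.00673), 1.85-fold lower in SK-N-AS, and -2.51 on the deposited scale. Without SK-N-FI control array 1 the adjusted p of ARID1A was 0.0586.

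CASZ1 had quantile signals of 6.94, 7.62 and 7.08 in treated and 7.48, 7.19 and 7.22 in control SK-N-AS arrays, against 8.51 and 8.64 in treated and 8.55 and 8.62 in control SK-N-FI arrays. Since the SK-N-AS control arrays were not above background, the difference has only a bound. CASZ1 was at least 1.97-fold higher in SK-N-FI than in SK-N-AS control arrays (limma adjusted p = 0.00105), and at least 5.95-fold higher on the deposited scale. Such bounds set the mean of the detected group against the background threshold of the other group's arrays, or against the probe set's own signal where that was higher. The adjusted p beside a bound, here and below, belongs to the difference of signals, and the bound itself was not tested.

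TP73 gave quantile signals of 4.35, 3.87 and 3.92 in treated and 3.71, 4.01 and 3.57 in control SK-N-AS arrays, against 6.57 and 6.34 in treated and 6.23 and 6.72 in control SK-N-FI arrays. SK-N-FI arrays stood closer to the background threshold: control array 2 had a deposited TP73 value of 7.43 against a threshold of 7.44. CHD5 gave 4.07, 3.88 and 4.14 in treated and 3.87, 4.08 and 3.57 in control SK-N-AS arrays, against 2.997 and 3.01 in treated and 3.02 and 2.70 in control SK-N-FI arrays. The signals of both genes differed between the lines' control arrays, TP73 lower in SK-N-AS (limma adjusted p = 4.68e-06) and CHD5 higher (0.00407), but no fold is given because both lines were below background. CHD5 lost its call without SK-N-FI control array 2 (limma adjusted p = 0.0552).

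UBE4B and KIF1B lie next to each other on the arm. UBE4B had quantile signals of 9.71, 9.51 and 9.57 in treated and 9.92, 9.52 and 9.68 in control SK-N-AS arrays, against 10.48 and 11.004 in treated and 10.70 and 10.97 in control SK-N-FI arrays. All SK-N-AS arrays were lower than all SK-N-FI arrays. The UBE4B control difference was -1.13 (95% interval -1.64 to -0.61, limma adjusted p = 0.00210), 2.18-fold lower in SK-N-AS, and -2.73 on the deposited scale.

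KIF1B gave quantile signals of 6.41, 6.91 and 6.95 in treated and 5.96, 7.52 and 6.47 in control SK-N-AS arrays, against 9.03 and 9.03 in treated and 9.27 and 9.11 in control SK-N-FI arrays. The SK-N-AS control arrays spread most, with an SD of 0.79, and array 26 carried the highest of their values. KIF1B was at least 3.002-fold higher in SK-N-FI than in SK-N-AS control arrays (limma adjusted p = 0.000175) and at least 9.28-fold higher on the deposited scale.

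ERRFI1 had quantile signals of 11.83, 11.77 and 11.78 in treated and 11.82, 12.10 and 11.98 in control SK-N-AS arrays, against 11.10 and 10.81 in treated and 11.31 and 10.83 in control SK-N-FI arrays. It was the detected gene of the 8 whose direction turned with the scale. The control difference of ERRFI1 was 0.90 on the quantile scale (95% interval 0.41 to 1.39, limma adjusted p = 0.00619), 0.32 after median centring (adjusted p = 0.233) and -0.52 on the deposited scale (adjusted p = 0.0647). The quantile call was also lost without SK-N-FI control array 2 (adjusted p = 0.0908). No direction is therefore given for ERRFI1 between the lines. The other 5 detected genes were lower in SK-N-AS on all 3 scales.

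**Figure D2:**
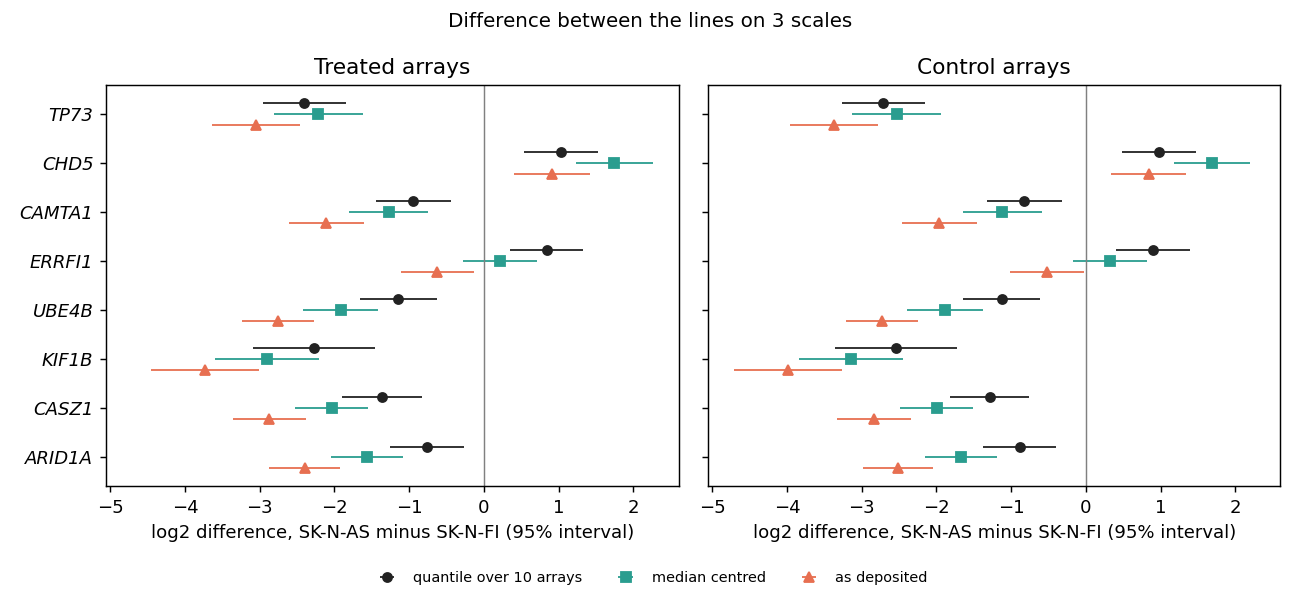
Log2 difference between the lines, SK-N-AS minus SK-N-FI (x axis), with 95% intervals for each of the 8 genes (rows, in order along the arm), in treated arrays (left) and control arrays (right). Symbols mark the 3 scales; ERRFI1 lies at 0.90, 0.32 and -0.52 in control arrays, while CAMTA1, UBE4B, KIF1B, CASZ1 and ARID1A lie below 0 on each scale.

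The treated arrays, which the control comparison did not use as values, gave the same directions. On the quantile scale the signals of 6 of the 8 genes were lower in SK-N-AS and those of 2 higher, again with TP73 and CHD5 below background. Of all probe sets 22.2% were called lower, 23.4% higher and 45.5% in either direction. Treated arrays of the lines were fully apart for all 8 genes and for 65.2% of all probe sets. The treated difference was -0.94 for CAMTA1, -1.15 for UBE4B and -0.76 for ARID1A (limma adjusted p = 0.00534, 0.00195 and 0.0155). CASZ1 was called lower (limma adjusted p = 0.000736), but it was above background on 1 of the 3 treated SK-N-AS arrays, and there only just, so the size of its difference is not known. KIF1B was at least 2.97-fold higher in SK-N-FI than in SK-N-AS treated arrays (limma adjusted p = 0.000411). ERRFI1 was at 0.84 on the quantile scale (adjusted p = 0.00943), 0.21 after median centring (0.435) and -0.62 on the deposited scale (0.0310). Treated and control arrays share 1 estimate of the spread in this fit. Without SK-N-FI treated array 1 the call of ARID1A was lost (adjusted p = 0.0729), and without array 2 those of CAMTA1 (0.0541), ERRFI1 (0.0923) and ARID1A (0.078).

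Promoter sequence is shown for the adjacent pair UBE4B and KIF1B, which were both lower in SK-N-AS, and for ERRFI1, which was not lower on the quantile scale. The sequences are the 250 bases before the gene start in RefSeq, build GRCh38.p14, written 5′ to 3′ on the gene's strand. Capitals mark GC boxes (GGGCGG or its reverse complement) and the E-box CACGTG. UBE4B lies on the plus strand at chr1:10032708-10032957, KIF1B on the plus strand at chr1:10210320-10210569 and ERRFI1 on the minus strand at chr1:8026310-8026559.
UBE4B: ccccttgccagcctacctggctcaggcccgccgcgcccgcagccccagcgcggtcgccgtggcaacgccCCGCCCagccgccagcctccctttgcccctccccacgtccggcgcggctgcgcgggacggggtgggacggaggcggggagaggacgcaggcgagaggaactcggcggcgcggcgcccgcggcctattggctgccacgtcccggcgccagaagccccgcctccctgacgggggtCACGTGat
KIF1B: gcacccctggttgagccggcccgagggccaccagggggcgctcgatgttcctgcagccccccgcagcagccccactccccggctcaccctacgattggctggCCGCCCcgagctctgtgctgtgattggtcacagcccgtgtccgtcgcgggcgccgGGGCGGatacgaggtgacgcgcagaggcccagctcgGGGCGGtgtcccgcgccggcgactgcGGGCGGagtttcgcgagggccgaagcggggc
ERRFI1: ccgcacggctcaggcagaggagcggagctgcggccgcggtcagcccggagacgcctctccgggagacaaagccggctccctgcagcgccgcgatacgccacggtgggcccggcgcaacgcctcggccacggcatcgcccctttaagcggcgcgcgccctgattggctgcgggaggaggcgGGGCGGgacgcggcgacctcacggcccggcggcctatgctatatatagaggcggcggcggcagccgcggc
The KIF1B window held 4 GC boxes, the UBE4B window 1 GC box and 1 E-box, and the ERRFI1 window 1 GC box. On either strand, a GC box occurred in 42.6% and an E-box in 6.34% of 35116 RefSeq promoters of the same length. The TATA box was searched for only as TATAAA, so the run tatatata close to the gene start of ERRFI1 was not counted. None of the 3 windows held TATAAA (10.7% of promoters), the AP-1 site TGANTCA (6.57%) or the cAMP response element TGACGTCA (1.65%). All 3 were rich in CpG, with 35 in UBE4B, 31 in KIF1B and 39 in ERRFI1 against a median of 11; 5.8%, 10.9% and 2.65% of promoters held as many or more. The share of promoters with these letters is a description, and the arrays do not measure binding there.

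The next question was whether the conjugate altered the 8 genes. In SK-N-AS none of the 8 was called, and limma called 0% of all 21448 probe sets, with 2.6% (557) at an unadjusted p under 0.05, none of them one of the 8. On the deposited scale CAMTA1 differed by -0.10 between treated and control SK-N-AS arrays, KIF1B by 0.08, CASZ1 by -0.06, UBE4B by -0.11 and CHD5 by 0.18. Larger values were -0.21 for ERRFI1 (95% interval -0.66 to 0.23), -0.19 for ARID1A (-0.67 to 0.28) and 0.27 for TP73 (-0.24 to 0.78), which had the smallest unadjusted p of the 8 at 0.264 (limma adjusted p = 1.00). Treated and control arrays overlapped for all 8 genes, while 7.31% of all probe sets did not overlap. KIF1B, TP73 and CHD5 were below background on all of these arrays.

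In SK-N-FI none of the 8 was called either, and limma called 0% of all probe sets, with 2.85% (611) at an unadjusted p under 0.05 and none of the 8 among them. ARID1A had deposited values of 11.40 and 11.33 in treated and 11.71 and 11.63 in control SK-N-FI arrays. Both treated arrays were lower, by -0.31 on average (95% interval -0.79 to 0.18, limma adjusted p = 1). KIF1B had 10.08 and 10.02 in treated and 10.28 and 10.15 in control SK-N-FI arrays, a difference of -0.17 (95% interval -0.66 to 0.32). ARID1A and KIF1B were the 2 of the 8 genes whose arrays did not overlap, where 27.8% of all probe sets did not. The other differences were 0.11 for CHD5, 0.05 for CAMTA1, -0.02 for CASZ1, -0.11 for ERRFI1, -0.05 for TP73 and -0.09 for UBE4B. TP73 and CHD5 were below background on all SK-N-FI arrays.

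For all 8 genes the 95% interval of the treatment effect lay within 1 log2 unit, a 2-fold change, in both lines. The same was true of 82.1% of all probe sets in SK-N-AS and 84.9% in SK-N-FI. CHD5 and TP73 were below background on every array. In SK-N-AS, KIF1B was too, and CASZ1 passed on 1 of 6 arrays. For these the interval concerns the probe signal and sets no limit on a change of the gene. The median change of the 8 genes was -0.08 in SK-N-AS and -0.07 in SK-N-FI, beside -0.0047 and -0.0055 over all probe sets. The difference of the treatment effects between the lines was between -0.15 (CAMTA1) and 0.32 (TP73, 95% interval -0.51 to 1.15), and none of the 8, nor any of the 21448 probe sets, was called (limma, 0%; 457 or 2.13% at an unadjusted p under 0.05).

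**Figure D3:**
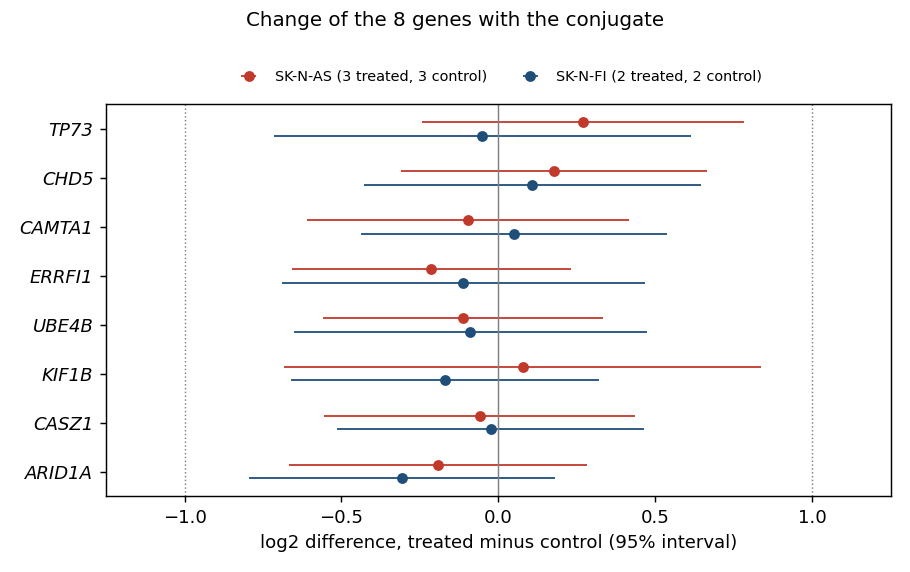
Log2 difference of treated minus control arrays on the deposited scale (x axis) with 95% intervals, for each of the 8 genes (rows) in SK-N-AS (red) and SK-N-FI (blue). All 16 intervals include 0 and lie inside the dotted lines at 1 and -1. Those of CHD5 and TP73, and of KIF1B and CASZ1 in SK-N-AS, concern signals at or below background and set no limit on a change of the gene.

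The genes act with partners that were measured on the same arrays, and these were counted in 7 lists on the quantile scale among control arrays, where 23.3% of all other symbols were lower in SK-N-AS and 24.7% higher. On the deposited scale 49% of all other symbols were lower and 11.9% higher, and of those above background in a line 73.7% and 9.58%. The lists were not filtered by background, so their deposited counts are to be read beside both pairs of shares. Of 8 paralogs of the 8 genes on the array, 5 were lower in SK-N-AS, 0 higher and 3 not called, with a median of -1.16. UBE4A, the paralog of UBE4B, was lower by -1.93 (limma adjusted p = 0.000221), and ARID2, which takes the place of ARID1A in another form of the SWI/SNF complex, by -2.45 (0.000148). ARID1B and CAMTA2 were not above background in SK-N-AS, and of the 5 lower paralogs only UBE4A and ARID2 were above it there. On the deposited scale all 8 paralogs were lower, beside 49% of all other symbols. The 7 of them above background in a line were all lower, beside 73.7% of the other symbols so detected.

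Of 21 SWI/SNF subunits, 8 were lower in SK-N-AS, 6 higher and 7 not called (median -0.11; on the deposited scale 16 lower, 1 higher, median -1.34). SMARCD1, a core subunit, differed by -2.08 (limma adjusted p = 3.95e-05). ACTL6B, the neuronal subunit, was below background on every SK-N-AS array and above it on every SK-N-FI array. Of 12 members of the NuRD complex, in which CHD5 can take the helicase's place, 2 were lower, 5 higher and 5 not called (median 0.67). Deposited values gave 9 (75%) lower and 0 higher (median -0.98), a share near the 73.7% over all symbols above background. HDAC2, a deacetylase of the complex, was lower on both scales, by -1.40 and -2.61 (limma adjusted p = 0.00111 and 4.41e-06). HDAC1, another deacetylase of the complex, was higher on the quantile scale, by 0.98, and lower on the deposited scale, by -0.66 (limma adjusted p = 0.00483 and 0.0317). MTA1 was at 2.07 and MBD2 at 1.73 on the quantile scale, and at 0.49 and 0.37 on the deposited scale, where neither passed.

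Of 10 kinesins and partners of KIF1B, 5 were lower in SK-N-AS, 1 higher and 4 not called (median -0.72; on the deposited scale 9 lower, 0 higher). KIF5C, a neuronal motor of kinesin's classical family, differed by -4.56 (limma adjusted p = 5.65e-07), KIF5B by -3.20 (0.00619) and KIFBP, a protein that binds KIF1B, by -1.53 (0.000322). KIF5C was not above background on every SK-N-AS control array, so the size of its difference is uncertain. The KIF5B values of SK-N-AS control arrays spread widely, with an SD of 1.49. KIF5A was at least 3.40-fold higher in SK-N-FI, and at least 10.5-fold on the deposited scale.

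Of 12 ERBB receptors and feedback inhibitors of receptor signalling, 3 were lower in SK-N-AS, 5 higher and 4 not called (median 0.40; on the deposited scale 6 lower, 2 higher, median -0.67). SPRY1, an inhibitor of receptor tyrosine kinase signalling, was higher in SK-N-AS on both scales, by 6.27 and 5.06 (limma adjusted p = 2.22e-09 and 4.44e-09). LRIG1, another feedback inhibitor of ERBB receptors, was at least 3.73-fold higher in SK-N-AS, and at least 1.44-fold on the deposited scale. SPRY2, like ERRFI1, turned with the scale, at 1.47 on the quantile and -0.15 on the deposited scale. SPRY4 was lower on both, at -1.19 and -2.85.

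Of 15 targets of the p53 family, 4 were lower, 4 higher and 7 not called (median -0.05; on the deposited scale 11 lower, 2 higher, median -1.65). TP53I3, an oxidoreductase induced by p53, differed by -3.24 (limma adjusted p = 9.84e-06), and GADD45A, a stress-response gene, by 3.10 (9.99e-07), with both directions kept on the deposited scale. Of 20 other candidate genes of 1p, 9 were lower, 3 higher and 8 not called (median -0.28; on the deposited scale 13 lower, 2 higher). In treated arrays 5 of the 20 were lower, 3 higher and 12 not called. ICMT, a carboxyl methyltransferase, differed by -2.66 (limma adjusted p = 1.64e-06), and ID3, an inhibitor of basic helix-loop-helix factors, was higher by 3.44 (2.46e-06). AJAP1 and NBL1 were below background in both lines. In the treatment comparison 0 genes of these lists were called in either line.

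The lines also differed in markers of neuroblastoma cell state, and their part in the differences of the 8 genes was not tested. Of 6 noradrenergic markers on the array, 3 were lower in SK-N-AS, 0 higher and 3 not called (on the deposited scale 6 lower, 0 higher). Their mean quantile signal was 7.54 to 7.93 in treated and 7.57 to 7.73 in control SK-N-AS arrays, against 10.53 to 10.97 in treated and 10.75 to 10.79 in control SK-N-FI arrays. PHOX2A, a homeobox gene of the sympathetic lineage, and DBH, the enzyme that makes noradrenaline, were below background on every SK-N-AS array, and DBH was at least 63.5-fold higher in SK-N-FI. TH, which makes the precursor of dopamine, was below background in both lines. HAND2 and GATA3 were above background on every array and not called on the quantile scale, at -0.15 and -0.29. Of 8 mesenchymal markers, 6 were higher in SK-N-AS, 1 lower (CD44, by -1.03) and 1 not called (SNAI2). On the deposited scale 5 were higher and 2 lower. FN1, FOSL1, PRRX1, YAP1 and TNC were below background on every SK-N-FI array. In SK-N-AS, PRRX1 passed on 1 of 6 arrays and YAP1 on 3 of 6. VIM, the remaining gene called higher, was at 0.90, and at 0.20 on the deposited scale (limma adjusted p = 0.421). The quantile means of the 8 markers, which include signals below background, were 9.20 to 9.64 in treated and 9.32 to 9.70 in control SK-N-AS arrays. In SK-N-FI they were 7.09 to 7.19 in treated and 7.05 to 7.10 in control arrays. Of 9 markers of other cells, 7 were higher in SK-N-AS and 1 lower, and on the deposited scale 6 were higher and 2 lower. Their means on the quantile scale were 8.74 to 9.23 in treated and 8.56 to 9.30 in control SK-N-AS arrays. In SK-N-FI they were 5.32 to 5.62 in treated and 5.25 to 5.39 in control arrays. Of the 9 markers, the fibroblast collagen COL1A1, the T-cell gene CD3E and the endothelial genes PECAM1 and CDH5 were below background on every SK-N-AS array. DCN, LUM, PDGFRA and CD68 were above background on all SK-N-AS arrays. The leukocyte gene PTPRC was above background on 5 of 6 SK-N-AS arrays and on 0 of 4 SK-N-FI arrays (limma adjusted p = 0.00128 between control arrays).

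The 8 genes were then set among their neighbours on the arm, in the order of RefSeq. Of 253 other symbols between TP73 and ARID1A, 47 (18.6%) were lower in SK-N-AS control arrays, 56 (22.1%) higher and 150 not called, with a median of 0.02. Over all other symbols 23.3% were lower and 24.7% higher, with a median of 0.03. Of the 54 neighbours between TP73 and CASZ1, 18 (33.3%) were lower and 9 (16.7%) higher, with a median of -0.38. Of the 199 between CASZ1 and ARID1A, 29 (14.6%) were lower and 47 (23.6%) higher, with a median of 0.12. With deposited values the medians were -0.75 and -0.47, beside -0.65 over all other symbols, and after median centring 0.10 and 0.37, beside 0.20. The difference between the stretches was read as a description, with no test.

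Many of these neighbours were below background, and keeping those detected in either line admits genes through that line alone. They were therefore also kept by their mean margin over the background threshold with both lines weighted equally, a filter chosen after seeing the data. Of the 20 neighbours kept between TP73 and CASZ1, 10 (50%) were lower and 2 higher, with a median of -0.71. Of the 63 kept between CASZ1 and ARID1A, 14 (22.2%) were lower and 21 (33.3%) higher, with a median of 0.24, while 28.8% of the 7502 other symbols so kept were lower and 29.6% higher.

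In consecutive groups of 25 neighbours, with no filter, the median difference was -0.43 for the group that runs up to PHF13, -0.13 for the group up to NMNAT1 and -0.30 for the group up to MFN2, which lies beyond CASZ1. It was -0.02 in the next group and between 0.01 and 0.36 in the following 6 groups, the last of 28 neighbours next to ARID1A. In treated arrays the medians of the first 4 groups were -0.36, -0.43, -0.32 and -0.03, and those of the other 6 lay between -0.12 and 0.53. On the deposited scale all 10 lay below 0, from -0.998 to -0.28.

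By the difference of signals, the 5 genes furthest down among those called were CAMK2N1, an inhibitor of calmodulin-dependent kinase (-3.52), ACOT7, an acyl-CoA thioesterase (-3.22), GFOD3P, E2F2, a cell-cycle transcription factor, and ICMT (-2.66). GFOD3P and E2F2 were below background in SK-N-AS, so the sizes of their differences are not known and their place in that order is not established; E2F2 was at least 1.43-fold higher in SK-N-FI. The 5 furthest up were TNFRSF9, a costimulatory receptor, TCEA3, EPHA2, ID3 (3.44) and GPR157, of which only ID3 was above background in both lines. TNFRSF9, which lies near ERRFI1, was at least 291-fold higher in SK-N-AS (164-fold on the deposited scale). TCEA3 was at least 2.70-fold and GPR157 at least 2.02-fold higher, and EPHA2 was above background on 1 of 3 SK-N-AS control arrays. These bounds depend on the scale. With deposited values that of TCEA3 was 1.06-fold, none could be given for GPR157, and that of E2F2, in the other direction, was 4.21-fold.

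**Figure D4:**
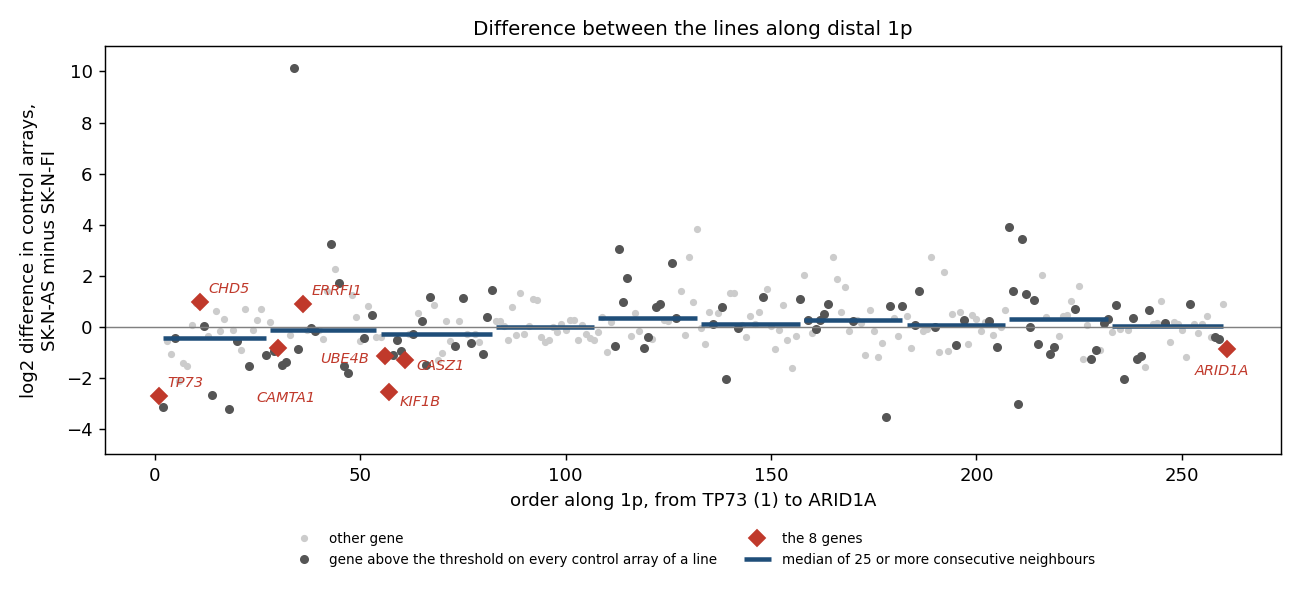
Log2 difference in control arrays, SK-N-AS minus SK-N-FI, on the quantile scale (y axis) for genes in their order along 1p (x axis); dark points are genes above background on every control array of a line, pale points the other neighbours and diamonds the 8 genes. Blue bars are medians of consecutive groups of at least 25 neighbours, dark and pale, which lie at -0.43, -0.13 and -0.30 from next to TP73 to beyond CASZ1 and between -0.02 and 0.36 from there to ARID1A.

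For each of the 8 genes, the 2 genes whose signals over the 10 arrays ran closest were taken by the root mean square distance of quantile profiles centred on their means. ERRFI1 was nearest to EGFR, the receptor (0.119 log2 units), and LARP1 (0.119), both above background on 10 arrays. EGFR differed by 0.91 and LARP1 by 1.01 between control arrays on the quantile scale, a likeness that follows from the choice by profile. On the deposited scale EGFR was at -0.66. Most symbols above background in a line were lower there, and HDAC1 of the NuRD list turned likewise, from 0.98 to -0.66. KIF1B was nearest to ARID2 (0.144) and FAM76B (0.154), CAMTA1 to TIMM50 (0.0862) and UQCC1 (0.0945), and ARID1A to CASTOR3P (0.105) and ATP2A2 (0.109). UBE4B was nearest to EPOR and GH1 (0.112 each) and CASZ1 to ZNF619 (0.127) and DRD5 (0.138). Of these last 4 genes, GH1, ZNF619 and DRD5 were below background on all arrays, as was MMRN1, the nearest to CHD5 (0.125). The next to CHD5 was SNX5 (0.129), above background on all 10 arrays. TP73 was nearest to ARHGAP25 (0.180), below background on all arrays, and BUB1 (0.197), above it on all 10. The profiles are dominated by the difference between the lines, which all points of a line share.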

How the data were processed

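The labels' protocols give Trizol extraction of total RNA, biotin labelling with a sense-strand whole-transcript kit and Affymetrix arrays. Values are deposited as log2 signals per probe set, and the submitters' processing notes list RMA with Transcriptome Analysis Console 4.0.1.36. RMA removes changes shared by most genes of an array. The genome build and further settings are not given in the sources used here.

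Of 24351 probe sets on 10 arrays, 2903 controls were set aside and 21448 tested. The platform annotation named 1 gene for 17709, all found in RefSeq (GRCh38.p14) by gene identifier; 3739 are unnamed here. No 2 arrays held identical values, and the number of arrays limits the precision.

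Groups came from titles and group labels. Limma 3.58.1 in R 4.3.3 (lmFit, eBayes) compared treated with control arrays within each line on the deposited values. The lines were compared in a fit of the 4 groups on values quantile normalized over the 10 arrays, and the difference of treatment effects in the same groups on deposited values. Benjamini-Hochberg adjustment ran over the 21448 probe sets, threshold 0.05. The fits were tested on simulated data. Alternatives were deposited or median-centred values, eBayes with trend and robust settings, fits of 2 groups, removal of dim probe sets, a replicate block for SK-N-FI and the removal of each array; a crossed block and a mean-based filter on neighbours were added after seeing the data.

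The 8 genes, the 10 lists of other genes and the tests were chosen with earlier results of these data known. Named were the 8 genes and up to 4 genes per list with the smallest p between control arrays, with further genes of the marker lists. Also named were the 5 largest called signal differences in each direction between TP73 and ARID1A, and the 2 genes nearest in profile. Among the latter, differences are also given for EGFR and LARP1. Promoters were found for 6 of the 8 genes.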

Additional observations from a re-analysis of the deposited data

How the results depend on the processing

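On the deposited scale, all probe sets called lower in SK-N-AS numbered 10253 among control arrays and 10253 among treated arrays, and those called higher 2473 and 2412; ERRFI1 turned to -0.52 and -0.62. Of the 8 genes, 1 was then higher in SK-N-AS in each comparison, and likewise 1 after median centring. This was CHD5, which was below background. Without dim probe sets, 6064 were called among control arrays (2798 higher) and 5768 among treated arrays (2968 lower, 2800 higher), since fewer were tested, with 1 of the 8 genes higher in each. With 1 array left out, 5 to 8 of the 8 were called among control arrays (0 to 2 higher) and 5 to 8 among treated arrays (1 to 2 higher); the losses came with SK-N-FI arrays, where the lone array is assumed to vary like the other groups. Limma with trend and robust settings and fits of 2 groups kept all 8 calls.

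No treatment effect or difference of effects was called under any alternative. Leaving out 1 array turned small values: in SK-N-AS between -0.23 and 0.0752 for CAMTA1, -0.21 and 0.45 for KIF1B and -0.22 and 0.0735 for CASZ1. In SK-N-FI the ranges were -0.0707 to 0.29 for CHD5, -0.0797 to 0.0317 for CASZ1, -0.31 to 0.0886 for ERRFI1, -0.38 to 0.28 for TP73 and -0.28 to 0.11 for UBE4B. For the difference of effects they were -0.11 to 0.25 for CHD5, -0.28 to 0.0249 for CAMTA1, -0.0401 to 0.62 for KIF1B, -0.20 to 0.10 for CASZ1, -0.30 to 0.10 for ERRFI1, -0.00728 to 0.65 for TP73 and -0.22 to 0.17 for UBE4B. The cause was not tested.

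In SK-N-FI, treated and control arrays share the replicate numbers 1 and 2, with no label that pairs them, and their deviations correlated at -0.17. The fit with a replicate block called 0 probe sets and 0 of the 8 genes, and so did the crossed pairing, chosen after seeing the data. Signal over background limits CHD5 and TP73 in both lines and KIF1B and CASZ1 in SK-N-AS.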

Other observations

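The stretch of 1p can be set beside whole chromosomes. Over the 1811 symbols of chromosome 1, the median difference, SK-N-AS minus SK-N-FI on the quantile scale in control arrays, was 0.17, which ranked 18 of 23 chromosomes from the lowest, and 16.1% were lower in SK-N-AS. Over the 15876 symbols off chromosome 1 the median was 0.02 and 24.1% were lower, and over the 54 neighbours between TP73 and CASZ1 the median was -0.38. With deposited values the chromosome's median was -0.43, beside -0.68 off chromosome 1 and -0.75 over the 54 neighbours. Whole chromosomes came close to the stretch, in which 33.3% were lower. On the quantile scale chromosome 13 had the lowest median of the 23, at -0.339, with 36.9% lower. Chromosome 15 was next, at -0.265, with 37.9% lower. With deposited values the medians of both chromosomes lay below that of the 54 neighbours.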
